A study of Rattus norvegicus with 2 samples.

Results

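The immunoglobulin superfamily neural adhesion genes Ncam1, L1cam, Nrcam, Nfasc, Cntn1, Cntn2, Alcam, Igsf3, Negr1 and Ntm were followed through 2 libraries of rat cortical neurons. They were chosen by name, with the control to RNAi ratios of these libraries already known, so their ratios are a description and carry no test. Of the 10 genes, 9 had a value in either library, among 9894 genes with a value, and Nfasc had none and was not analysed here. Neurons came from the dissociated somatosensory cortex of E16 Sprague-Dawley rats and were electroporated with a control plasmid or with an RNAi plasmid, which the study describes as carrying a scrambled sequence or an siRNA against PIWIL1. Both groups then spent 48 h in Neurobasal medium supplemented with 10% FBS and 2% B27. Each group was 1 library, and how many animals it drew on, what share of its cells took up plasmid and which siRNA was used are not given in the sources used here. Piwil1 had 0 identifiers with a value, so the knockdown was not checked here.

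Adhesion molecules of this superfamily carry immunoglobulin domains, often followed by fibronectin type III repeats, on the outer face of the membrane, and bind copies of themselves or of one another on neighbouring cells. In developing cortex they are known for the growth and bundling of axons, for the contact of migrating neurons with their substrate and for the sorting of axonal membrane into domains. The L1 family and Ncam1 have forms that span the membrane and reach the cytoskeleton through ankyrins or spectrins, while contactins and IgLON proteins are held by a lipid anchor.

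In digital gene expression profiling each transcript is cut at CATG and read as a short tag of 21 bases, cut site included. The copies of all tags of a gene were summed, and tags are numbered by the CATG site they came from, with site 1 nearest the 3′ end of the transcript. The tags below belong to the genes that the results turn on and are a selection. They are written 5′ to 3′ as the tables list them, and capitals mark the CATG. The Igsf3 tags are shown because they were the ones that differed, the L1cam and Ncam1 tags because near and far sites of those genes had different ratios, and the Nrcam tags because they lay far from the 3′ end.
Igsf3 site 3: CATGcccttacccagcctaaa
Igsf3 site 4: CATGaagtagagaactgttgg
Igsf3 site 6: CATGtcccaggacactatatg
Igsf3 site 9: CATGtctagtgaagctagaag
L1cam site 1: CATGgtggggtctgttcagga
L1cam site 4: CATGtgaggcaggaccaagct
Ncam1 site 1: CATGggattgcctttttgtag
Ncam1 site 2: CATGatgggtaccagcaaaaa
Ncam1 site 5: CATGtgcatcgctgttaacct
Ncam1 site 7: CATGctcaagtccctagactg
Nrcam site 8: CATGtcttcatatttactccc
Nrcam site 21: CATGctgccagggctgcaacc
Cntn2 site 1: CATGgtcagcacagagtctcc
Ntm site 1: CATGaagtgtgaaatccgaag

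The level of Igsf3 decreased by 68.2% in the RNAi library, and L1cam, Ncam1, Nrcam and Cntn2, which with Igsf3 and Ntm had at least 50 copies, lay within 10% of their control level. A gene was called when Fisher's exact test on its copies gave an FDR of 0.05 or less and the log2 ratio of TPM, RNAi over control, was at least 0.58 in size. TPM here is copies per 1000000 clean tags of a library, with no division by gene length, so that levels are compared between libraries and not between genes. By this rule 1 of the 9 genes was called lower and 0 were called higher, where 5.97% of all genes were called lower and 2.96% higher. The test compares these libraries and not the conditions, since no second culture stood behind either value. By the log2 ratio alone 2 of the 8 genes present in both libraries were lower, Igsf3 and Cntn1, beside 18.3% of such genes in the series, and 0 were higher, beside 9.92%. The median log2 ratio of the 8 genes was -0.19, and that of all 8899 genes in both libraries was -0.08. In a bulk library, fewer cells of one type and less RNA per cell cannot be told apart.

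**Figure D1:**
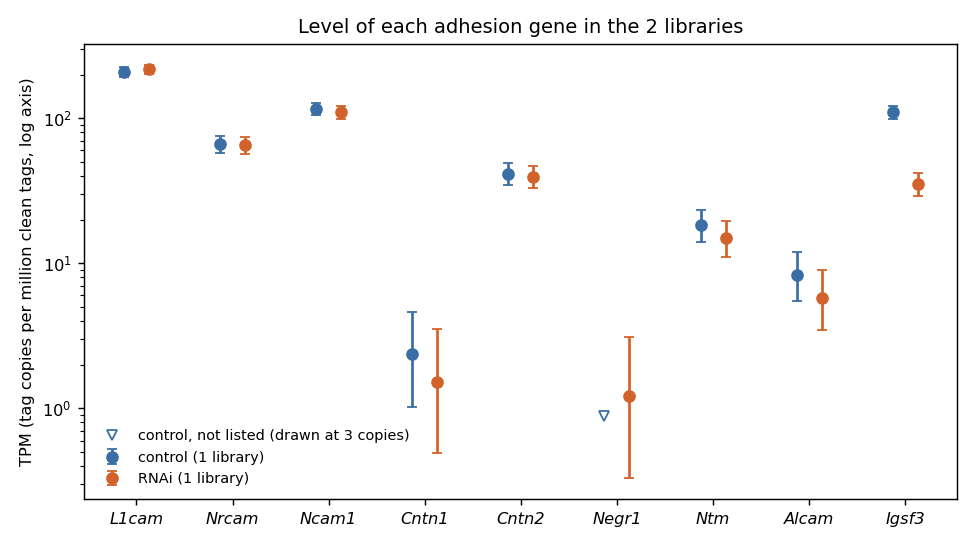
Level of each listed gene in TPM, copies per 1000000 clean tags, on a log axis, with one point for the control and one for the RNAi library and bars for the exact 95% interval, which covers counting error only (Negr1, at 0 copies in control, is drawn as a triangle at the floor of 3 copies). Igsf3 stood at 110.4 TPM in control and 35.1 TPM in RNAi with separate bars, whereas the bars of L1cam, Ncam1, Nrcam and Cntn2 overlapped.

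L1cam, the founding member of its family and a receptor that promotes axon growth, had 705 copies in the control library and 719 in the RNAi library. These were 208 TPM (95% interval 193 to 224) and 218 TPM (202 to 234). The interval, exact from the counts as for every interval here and covering counting error only, ran from -0.09 to 0.22 around a log2 ratio of 0.06. The levels overlapped, and of the 8 genes in both libraries L1cam alone had a ratio above 0 when scaled to clean tags. With edgeR's TMM factors Nrcam (log2 ratio 0.06), Cntn2 (0.03) and Ncam1 (0.01) lay above 0 as well, and L1cam stood at 0.16. Nrcam, which with neurofascin gathers ion channels at axonal domains, had 225 and 215 copies, or 66.4 and 65.1 TPM. Its log2 ratio was -0.03 (95% interval -0.31 to 0.25), again with overlapping levels.

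Ncam1, the neural cell adhesion molecule and main carrier of polysialic acid, had 394 copies in control and 362 in RNAi. Its TPM was 116 in control and 109.6 in RNAi, a log2 ratio of -0.09 (95% interval -0.30 to 0.12). Thus Ncam1 differed by less than its counting error. One of its main tags, at site 2, ends in 5 A, and tags with that end had a median log2 ratio of 0.39 over 50 tags of the series. Without this tag Ncam1 had 284 and 231 copies and a log2 ratio of -0.26 (95% interval -0.52 to -0.01).

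Cntn2, a contactin also known as TAG-1 that is found on growing axons and binds L1 family proteins, had 140 copies in control and 131 in RNAi, or 41.3 and 39.7 TPM. Its log2 ratio of -0.06 (95% interval -0.41 to 0.29) was within counting error. Cntn1, a relative that takes part in the junction of axon and myelinating glia, was near the limit of these libraries, with 8 and 5 copies. Its log2 ratio of -0.64 was past the ratio threshold, but the interval ran from -2.60 to 1.15 and the gene was not called. Alcam, an adhesion molecule of axons that fasciculate, had 28 and 19 copies and lay just short of the ratio threshold at -0.52 (95% interval -1.45 to 0.37). No difference of Cntn1 or Alcam beyond counting error was detected.

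Of the IgLON genes, whose proteins form pairs with one another on neuronal membranes, Ntm had 62 copies in control and 49 in RNAi, which were 18.3 and 14.8 TPM. Its log2 ratio was -0.30 (95% interval -0.87 to 0.26). Negr1 was listed at 0 copies in control and at 4 copies in RNAi, all from 1 tag at site 3. The exact 95% interval of its log2 ratio reached down to -0.56, so these counts do not set a direction, and Negr1 was not called. Both IgLON genes are thus known here only within wide limits.

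**Figure D2:**
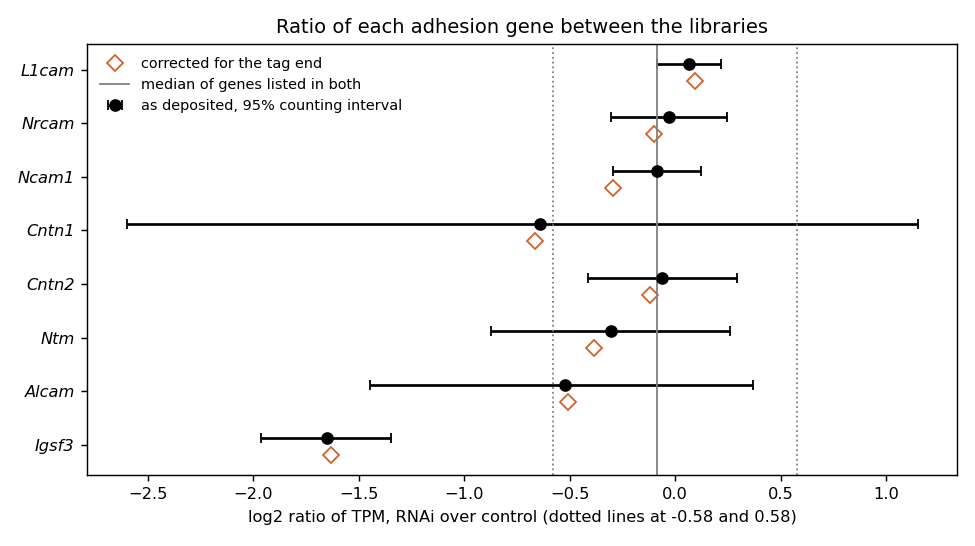
Log2 ratio of TPM, RNAi over control, for each listed gene with copies in both libraries, as black points with bars for the exact 95% interval and, as open diamonds, after the tag-end correction. Dotted lines mark the log2 threshold of 0.58 and the solid line the median of all genes in both libraries. The bar of Igsf3 runs from -1.97 to -1.35, and the bars of the other 7 genes include 0.

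Igsf3, a membrane protein of the EWI group whose members associate with tetraspanins, had 374 copies in the control library and 116 in the RNAi library. Its level was 110.4 TPM in control and 35.1 TPM in RNAi, a ratio of 0.318. The log2 ratio was -1.65 (95% interval -1.97 to -1.35), and among the 6010 genes of the series with at least 50 copies 14 had a lower one. The decrease did not rest on 1 tag. Igsf3 had 9 tags with at least 20 copies over both libraries, and 9 were lower in RNAi. The other listed genes had 23 such tags, 13 of them lower, and the series had 16021, of which 55.3% were lower.

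The site 3 tag of Igsf3, the most copied one, had 112 copies in control and 49 in RNAi, a log2 ratio of -1.16 (95% interval -1.67 to -0.66). The site 4 tag had 44 and 7 copies, the site 6 tag 32 and 5, and the site 9 tag 64 and 18. Their log2 ratios were -2.62, -2.64 and -1.79. Without the site 3 tag Igsf3 had 262 and 67 copies and a log2 ratio of -1.93 (95% interval -2.34 to -1.54). Igsf3 had no tag at site 1 or site 2, and its tags reached from site 3 to site 21. Among the genes with at least 50 copies, 359 (5.97%) likewise had none at site 1.

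The ratio of a tag also differed with its end bases. Over the series, tags ending in GG had a median log2 ratio of -0.55 and those ending in TG one of -0.67. The Igsf3 tags with these ends, among them the site 4 and site 6 tags printed above, held 153 copies in control and 28 in RNAi (log2 ratio -2.41, 95% interval -3.05 to -1.83). The Igsf3 tags with other ends held 221 and 88 copies (log2 ratio -1.29, 95% interval -1.67 to -0.93), and the intervals of both groups lay apart. When the copies of every tag were corrected for the median of its end class, Igsf3 stood at -1.63 and remained called.

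**Figure D3:**
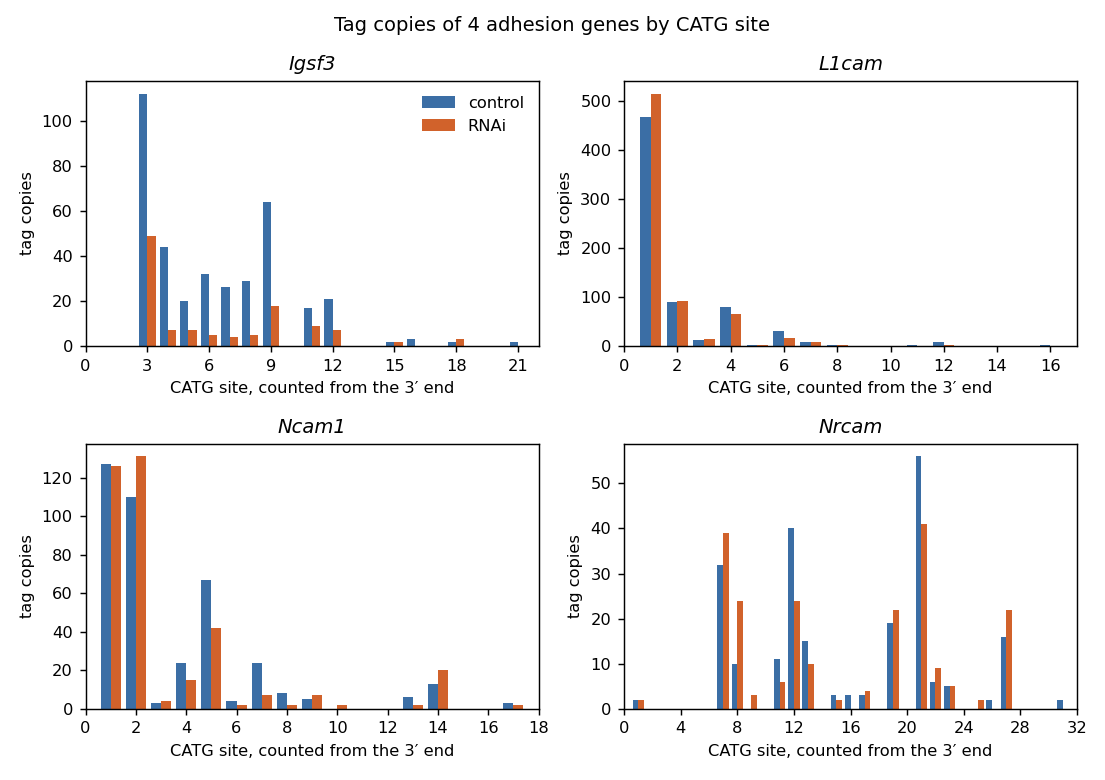
Tag copies of Igsf3, L1cam, Ncam1 and Nrcam in one panel a gene, with the CATG site counted from the 3′ end on the horizontal axis and bars for the copies in the control and the RNAi library, each axis of copies starting at 0. The RNAi bar of Igsf3 is the shorter one at each of its sites from 3 to 12 with a tag, Nrcam has hardly a copy at its first sites, and the site 1 bar of L1cam includes the near copies of its main tag.

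The tags of L1cam and Ncam1 lay on both sides of 0. The site 1 tag of L1cam had 467 copies in control and 509 in RNAi (log2 ratio 0.16), whereas its site 4 tag had 79 and 66 (-0.22) and its site 6 tag 30 and 17 (-0.78). For Ncam1 the site 1 tag had 127 and 126 copies and the site 2 tag 110 and 131. Farther from the 3′ end, its site 5 tag had 67 and 42 copies (log2 ratio -0.64, 95% interval -1.23 to -0.06) and its site 7 tag 24 and 7 (-1.74, 95% interval -3.20 to -0.48). The site 14 tag went the other way, with 13 and 20 copies. The end classes of these Ncam1 tags differed as well. Over the series the median log2 ratio was 0.11 for the AG end of site 1 and 0.39 for the 5 A of site 2. It was -0.24 for the CT end of site 5 and -0.67 for the TG end of site 7.

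Sites were summed in 2 ranges, a split chosen after the tag values were seen, with no correction for the tag end. The part of the tag end in these sums was not tested. L1cam had 569 and 620 copies at sites 1 to 3 (log2 ratio 0.16, 95% interval -0.01 to 0.33) and 136 and 99 at sites 4 and beyond (-0.42, 95% interval -0.81 to -0.04). Ncam1 had 240 and 261 copies at the near sites (0.16, 95% interval -0.10 to 0.42) and 154 and 101 at the far sites (-0.57, 95% interval -0.95 to -0.20). The far sites were lower than the near ones by 0.58 on the log2 scale in L1cam, by 0.73 in Ncam1 and by 0.77 in Igsf3, while Cntn2 differed by 0.04. Over the 3220 genes with at least 20 copies in each range the median of this difference was -0.07, with quartiles of -0.46 and 0.34. A lower difference than that of L1cam was seen in 19.0% of these genes, than that of Ncam1 in 13.7% and than that of Igsf3 in 12.3%. Among genes at this minimum of 20 copies such differences were thus not rare. Over the 888 genes with at least 100 copies in each range the quartiles were narrower, at -0.38 and 0.26. The share of those genes below each member was not computed.

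**Figure D4:**
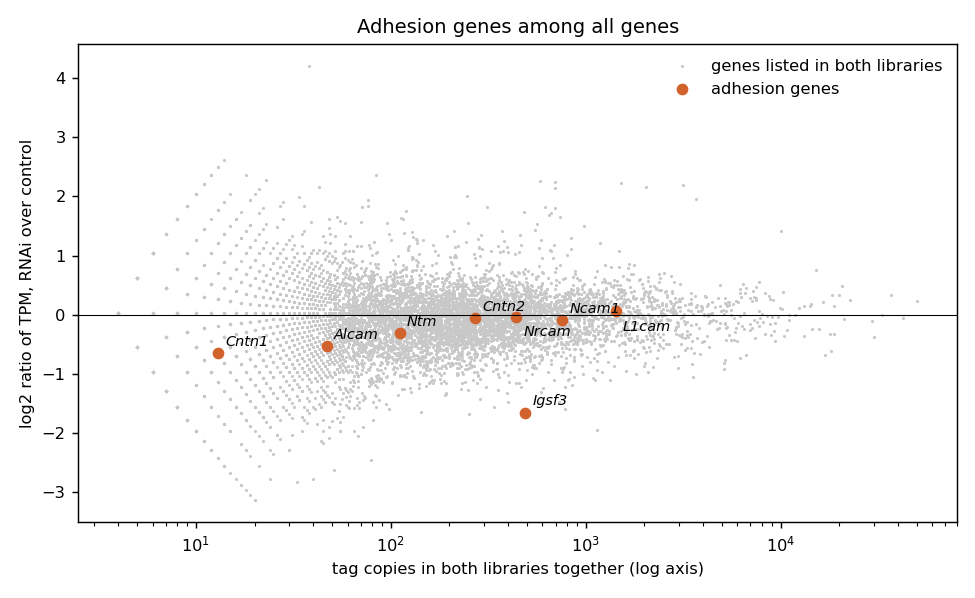
Log2 ratio of TPM, RNAi over control, against the copies of each gene in both libraries on a log axis, with the listed genes named among all genes present in both libraries. Igsf3, with 490 copies, lies far below the other listed genes, and L1cam, with 1424 copies, lies at 0.06.

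The copies of Nrcam lay mostly far from the 3′ end. Its 18 tags reached from site 1 to site 31, and site 1 held 0.889% of its copies in control and 0.930% in RNAi, against 62.7% and 64.6% of all copies on genes. Its site 21 tag had 56 and 41 copies, and its site 8 tag 10 and 24 (log2 ratio 1.30, 95% interval 0.18 to 2.53). Its 7 tags with 20 copies or more were divided, with 3 lower and 4 higher, and without the site 21 tag the gene had 169 and 174 copies. By contrast, site 1 held 70.7% of the copies of Cntn2 in control and 72.5% in RNAi, and 69.4% of those of Ntm in each library. The site 1 tag of Cntn2 had 99 and 95 copies and that of Ntm 43 and 34.

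Near copies of the most frequent L1cam tag were listed beside it in the RNAi library. Counting positions from 1 at the C of CATG, the tag with the change T11G had 3 copies and the tag with A21C had 2, which were 0.589% and 0.393% of the copies of the site 1 tag. Both were at 0 in control. They were kept in the L1cam total as deposited.

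Among 68 other adhesion genes of the superfamily, 43 had a value, of which 5 (11.6%) were called lower and 1 (2.33%) higher, beside 5.97% and 2.96% of all genes. Their median log2 ratio was -0.06 over the 35 genes present in both libraries, with 8 past the ratio threshold on the lower side and 3 on the higher. Among all genes in both libraries 18.3% were past it on the lower side and 9.92% on the higher. The genes called lower were Igsf9, a regulator of dendrites and synapses, with 45 copies in control and 15 in RNAi, Cadm1, a synaptic adhesion molecule, with 54 and 20, Kirrel3, a nephrin relative, with 32 and 12, Clmp, a tight junction protein, with 61 and 28, and Cd200, a ligand that restrains myeloid cells, with 359 and 217. Their log2 ratios were -1.55, -1.40, -1.38, -1.09 and -0.69. Few tags stood behind most of them. Igsf9, Cadm1 and Clmp had 1 tag each with at least 20 copies, Kirrel3 had 0 and Cd200 had 4, all of them lower. Site 1 held 55.6% of the Igsf9 copies in control and 13.3% in RNAi. At sites 4 and beyond Igsf9 had a log2 ratio of -0.96 and was not called. Kirrel3 was no longer called when 1 copy was put back for each tag absent from one library (log2 ratio -1.16). Amigo3, with a single tag at site 6, was called higher with 15 and 37 copies, a log2 ratio of 1.34 (95% interval 0.44 to 2.31).

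Neither of the listed EWI relatives of Igsf3 was called lower. Igsf8, of the same EWI group, had 675 and 856 copies (log2 ratio 0.38, 95% interval 0.23 to 0.53) and did not reach the ratio threshold. Ptgfrn, another member, had 170 and 179 copies (0.11, 95% interval -0.20 to 0.42). Nptn, which encodes neuroplastin, had 772 and 723 copies (-0.06), and Mpzl1, a relative of myelin protein zero, had 335 and 369 (0.18). Of the IgLON relatives of Negr1 and Ntm, Lsamp had 22 and 24 copies and Opcml 28 and 26. Ncam2, the paralog of Ncam1, had 3 and 2 copies, too few to compare.

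**Figure D5:**
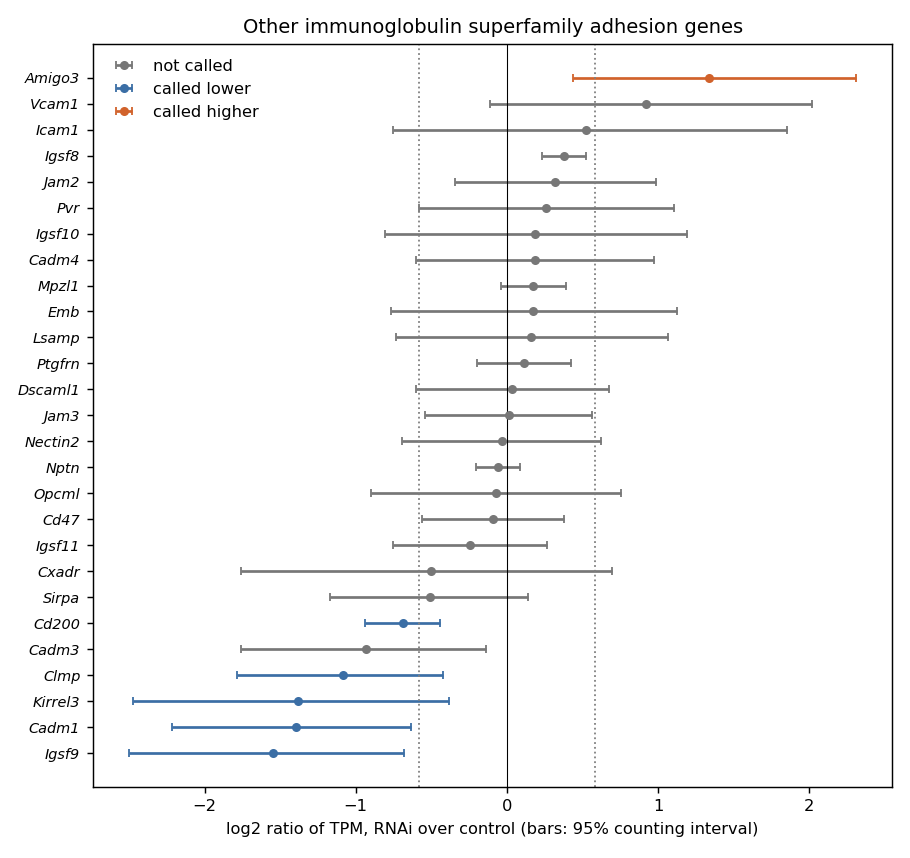
Log2 ratio of TPM, RNAi over control, for 27 other adhesion genes of the immunoglobulin superfamily with at least 20 copies over both libraries, with bars for the exact 95% interval and dotted lines at the log2 threshold of 0.58. Igsf9, Cadm1, Kirrel3, Clmp and Cd200, called lower, lie below the lower line, as does Cadm3, which was not called, and Amigo3 lies above the upper line together with Vcam1, which was not called.

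Among 54 genes for the partners of these receptors, which are cytoplasmic linkers, ligands, sheddases and enzymes that modify them, 39 had a value. Of these 1 (2.56%) was called lower and 1 (2.56%) higher, beside 5.97% and 2.96% of all genes, so neither share was above that of the series. The median log2 ratio of the partner genes was 0.04. Ank3, the ankyrin that anchors L1 family proteins at the axon initial segment, had 2 identifiers, of which the more copied was used. It had 171 copies in control and 102 in RNAi (log2 ratio -0.71, 95% interval -1.08 to -0.35), with 4 of 4 tags of 20 copies or more on the lower side. Corrected for tag ends, its log2 ratio was -0.59. Ezr, which encodes the membrane linker ezrin, had 222 and 337 copies (0.64, 95% interval 0.39 to 0.89). Of the most copied partners, Sptan1, the alpha spectrin, had 1876 and 2241 copies (0.29) and Ap2m1, a clathrin adaptor subunit, 1365 and 1443 (0.12). Gap43, a growth cone protein, had 2670 and 3541 copies (0.44), of which 74.4% sat on tags ending in 8 or more A, and its log2 ratio was -0.19 after the tag-end correction. None of the copies of the 9 adhesion genes sat on such tags.

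The library totals and the cell markers bear on all these values. The control library held 1947600 copies on 9496 genes and the RNAi library 1865913 on 9297, and tags seen once were absent, since the lowest copy number of any tag was 2. Of 15 neuron markers 14 had a value, and 2 (14.3%) were called lower (Snap25 and Elavl3) and 0 higher, beside 5.97% and 2.96% of all genes. The median log2 ratio of the neuron markers was -0.40, against -0.08 for all genes in both libraries. Their summed level was 4740 TPM in control and 4137 in RNAi. Without Gap43 the sum was 3952 and 3065 TPM and the median log2 ratio -0.45. Of 10 progenitor markers 7 had a value, with a sum of 1025 and 1311 TPM, or 235 and 184 without Vim, the most copied of them. Vim had 2674 and 3724 copies (log2 ratio 0.51), and 0.48 after the tag-end correction. Site 1 held 0.299% of the Vim copies in control and 27.8% in RNAi. Astrocyte markers (6 of 8) summed to 288 and 305 TPM, oligodendrocyte lineage markers (10 of 10) to 63.8 and 67.2, and fibroblast and mural markers (7 of 8) to 634 and 598. Microglia markers (6 of 9) summed to 839 and 2215 TPM, or 19.2 and 24.2 without Cd68, 99.3% of whose copies sat on tags ending in 8 or more A. Cd68 was called higher (log2 ratio 1.42), and its log2 ratio was -0.20 after the tag-end correction. Endothelial markers (1 of 7) summed to 0 and 0.61 TPM and red blood cell markers (4 of 5) to 36.0 and 56.3. Of the red blood cell markers Hba-a1 was called higher, with 28 copies in control and 70 in RNAi. No progenitor, astrocyte, oligodendrocyte lineage, endothelial or fibroblast and mural marker was called. The part of these differences in the adhesion gene values was not tested.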

How the data were processed

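Tags of 1 control and 1 RNAi library were used. The authors deposited the tag count of each gene, summed over its tags and not normalized, and its TPM, the copies per 1000000 clean tags with no division by gene length. The submitters' processing notes name the genome build rn4, and the tool that assigned tags to genes is not given in the sources used here. Every tag was listed under 1 gene. Genes were matched by RefSeq accession or description, and 9337 of 9894 (94.4%) had a symbol. No column was left without a sample.

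With 1 library per group edgeR's quasi-likelihood test has no residual degrees of freedom, so the copies of each gene against all other copies on genes went into Fisher's exact test (two-sided). Its p-values were adjusted by the Benjamini-Hochberg method over 9894 genes. Calls needed an FDR of at most 0.05 and a log2 ratio of at least 0.58 in size. Intervals are exact (Clopper-Pearson, 95%), and intervals and the floor of 3 copies (0.886 TPM in control, 0.908 TPM in RNAi) cover counting error only. With 1 library per group they hold no variation between cultures. Tags carry no molecular identifiers, so amplified copies were counted as separate ones and the intervals can be too narrow. The tag-end correction grouped tags by their last bases, and the median log2 ratio of each class was estimated on other genes.

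The members and lists were chosen with earlier results of these data known. All 10 members are named, with every called gene and the 3 most copied genes of the other adhesion list and of the partner list, and relatives of members named after their values were seen. Alternatives were edgeR TMM factors, DESeq2 size factors, all tags on genes as totals, filters, pseudocounts, thresholds, assumed coefficients of variation, tag choices and, added after seeing the data, the site ranges. The tools were edgeR 4.0.16 and DESeq2 1.42.0 in R 4.3.3, and SciPy 1.17.1, NumPy 2.4.6, Matplotlib 3.10.9 and pandas 2.3.3 in Python 3.11.15.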

Additional observations from a re-analysis of the deposited data

How the results depend on the processing

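Igsf3 was called lower under 15 of the 16 alternatives, with log2 ratios from -1.93 to -1.16, and the other members had no call under any of them. All alternatives reused the same 2 libraries. The scaling factors and the stricter thresholds left the Fisher test of Igsf3 as it was, so the tally is no measure of repeatability. When the exact test of edgeR was given a coefficient of variation between cultures of 0.2, 0 members were called lower, and with 0.1 Igsf3 was still called. The variation between cultures cannot be estimated from 1 library a group. No paired analysis was possible because each group has 1 library, and for the same reason no replicate could be left out. Of the other adhesion genes, those called lower numbered 1 at an FDR of 0.001, 1 and 0 at coefficients of variation of 0.1 and 0.2, 2 by the most copied tag alone, 3 by sites 1 to 3 and 1 by sites 4 and beyond, and those called higher numbered 0 at an FDR of 0.001, at either coefficient and by sites 1 to 3. The partner genes called lower numbered 0 at a log2 threshold of 1, at an FDR of 0.001, at either coefficient and by sites 4 and beyond, and 2 by the most copied tag. Those called higher numbered 0 at a log2 threshold of 1 and at either coefficient, and 4 by the most copied tag. Over all genes, the counts called lower and higher were 262 and 146 at a log2 threshold of 1, 257 and 163 at an FDR of 0.001, 170 and 114 at a coefficient of 0.1, 2 and 15 at 0.2, 374 and 182 after the tag-end correction, and 89 and 51 by sites 4 and beyond. With TMM factors the small log2 ratios of Nrcam, Cntn2 and Ncam1 turned from below to above 0 (0.06, 0.03 and 0.01), and with DESeq2 size factors those of Nrcam and Cntn2 did. Ncam1 had a log2 ratio of -0.30 after the tag-end correction, Nrcam -0.41 by its most copied tag and Ntm 0.62 by sites 4 and beyond, where it had 4 and 6 copies. Where the assumed variation, fewer tags or a stricter threshold did not by construction lower a count, the cause was not tested. The ranges of sites were chosen after seeing the data. Cntn1, Alcam and Negr1, under 50 copies each, are limited by depth.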

Other observations

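Of the 43 other adhesion genes of the superfamily with a value, 35 were listed in both libraries and 8 in one library alone, 3 in control and 5 in RNAi. For comparison, of the 9894 genes of the series 8899 were listed in both libraries, 9496 in control and 9297 in RNAi. Mdga2, a lipid-anchored regulator of synapse formation, had 7 copies in control and 0 in RNAi, and the exact 95% interval of its log2 ratio ended at -0.49. Dscam, known for the self-avoidance of neurites, had 5 copies in control and 0 in RNAi, with an interval that ended at 0.16 and so included 0. Cadm2 and Nectin3, both cell contact proteins, had 4 copies each in RNAi and 0 in control, with intervals that began at -0.56. F11r, Igsf1, Mag and Amigo1 had 2 copies in one library and 0 in the other, under the floor, and no ratio is given for them. A 0 here can hide tags seen once, which were absent from these data, and the intervals do not allow for that. None of the 8 genes was called.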
